A study of Mus musculus with 9 samples.

Results

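Glycolysis, lactate handling and the entry of pyruvate into mitochondria were followed through 36 genes of the mouse dentate gyrus. They were chosen by symbol for their biochemical role, by a rule that uses no measured values, and all 36 were found among the 24015 genes of each deposited table. Earlier results of these data were known when the genes were chosen. The dentate gyrus is the region of the hippocampal formation packed with granule neurons. It was microdissected from adult C57BL/6 mice aged 8 weeks with no transgene named in the labels, and total RNA of individual mice was sequenced. The groups E0, E1 and E4 held 3 mice each, and what the numbers in these names count is not said in the labels. From knowledge of the study, E0 stands for the time before electroconvulsive stimulation, and E1 and E4 for 1 h and 4 h after it, a treatment that drives granule neurons to fire together. The question was how neuronal activation changes RNA levels in adult brain tissue.

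Neurons and glia take up glucose through facilitative carriers, phosphorylate it with hexokinase and split it by glycolysis into pyruvate, which lactate dehydrogenase can turn into lactate and back. Monocarboxylate transporters carry lactate between cells, while the mitochondrial pyruvate carrier brings pyruvate to the pyruvate dehydrogenase complex, which makes acetyl-CoA for the citric acid cycle. Pyruvate dehydrogenase kinases switch that complex off by phosphorylation and the phosphatase Pdp1 switches it on again, and the PFKFB enzymes set the level of the sugar bisphosphate that activates phosphofructokinase.

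Both groups were set against E0 in tables that the authors deposited. Each table gives a mean normalised count per gene, a log2 fold change with its standard error (SE, printed after ±) and an adjusted p from DESeq2. No value per mouse is in these tables, so group levels were computed here from the mean count and the fold change and put on 1 scale, and they carry no SD. A gene was said to rise or fall where the authors' adjusted p was below 0.05. Single-read steps in the mean counts put the depth at about 6140000 to 10960000 reads in E0, 1940000 to 4760000 in E1 and 10020000 to 13550000 in E4, and E1 was the shallowest group. As a check of the labels, the activity genes Arc and Fos in E1 were 101-fold and 24.98-fold above E0 in the authors' deposited table. Prox1, a transcription factor that marks granule neurons, had a level of 2298 in E0, 1454 in E1 and 3063 in E4. The summed level of 10 granule neuron markers was 0.708 times that of E0 in E1 and 1.002 times in E4. Of these markers, 2 rose and 7 fell in E1, and 4 rose and 5 fell in E4. Over all genes tested, 20.6% rose and 15.0% fell in E1, and 20.7% rose and 18.3% fell in E4. Single granule neuron markers in E4 ran from 0.062 times (Tdo2) to 2.83 times (Neurod2) their E0 level. The sums of 10 markers each of interneurons, endothelial cells, astrocytes and microglia in E1 were 1.5001, 1.52, 0.935 and 0.710 times those of E0. Slc1a2, not called in E1, held 34922 of the astrocyte sum of 58801 in E0. Of the 10 astrocyte markers 6 fell and none rose in E1, with a median log2 fold change of -0.42. No marker of these lists was at 0. In tissue RNA, fewer cells of a type and less RNA per cell cannot be told apart. Log2 fold changes in E1 also moved with transcript length, with a median of -0.21 over the 2368 shortest well-read genes (a mean count of at least 50) and 0.16 over the 2368 longest. In E4 these medians were -0.03 and 0.09. The part of the markers in the changes below was not tested, and length was addressed by removing its trend.

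Calls were made at glucose entry, in upper and lower glycolysis, in the lactate branch and at the gate to the mitochondria. In E1, 2 of 6 genes of upper glycolysis and 2 of 6 of lower glycolysis were called. In E4 these counts were 4 of 6 and 1 of 5 tested. In E1, 16 of the 36 genes changed, 12 up and 4 down, which is 44.4% where 35.5% of all 15660 genes tested were called. Among well-read genes the share was 48.4% (15 of 31 members) against 45.1% of all, so the count in E1 was near the background. In E4, 21 of 34 members with an adjusted p changed, 9 up and 12 down, which is 61.8% against 39.0% of all 14455 genes tested. Among well-read genes this was 63.6% (21 of 33) against 47.4%. The median log2 fold change of the members was 0.07 in E1 and -0.06 in E4, beside 0.02 and -0.01 over all genes tested. Changes were mostly small: the median size of the log2 fold change of well-read members was 0.25 in E1 and 0.29 in E4, beside 0.36 and 0.30 for all well-read genes. Per kilobase of transcript, the highest levels in E0 were those of Gapdh (13490), Aldoa (11650), Pkm (4974), Tpi1 (3009) and Eno2 (2679), and the lowest of well-read members was Slc16a7 (9.27). Both comparisons share the E0 libraries.

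**Figure D1:**
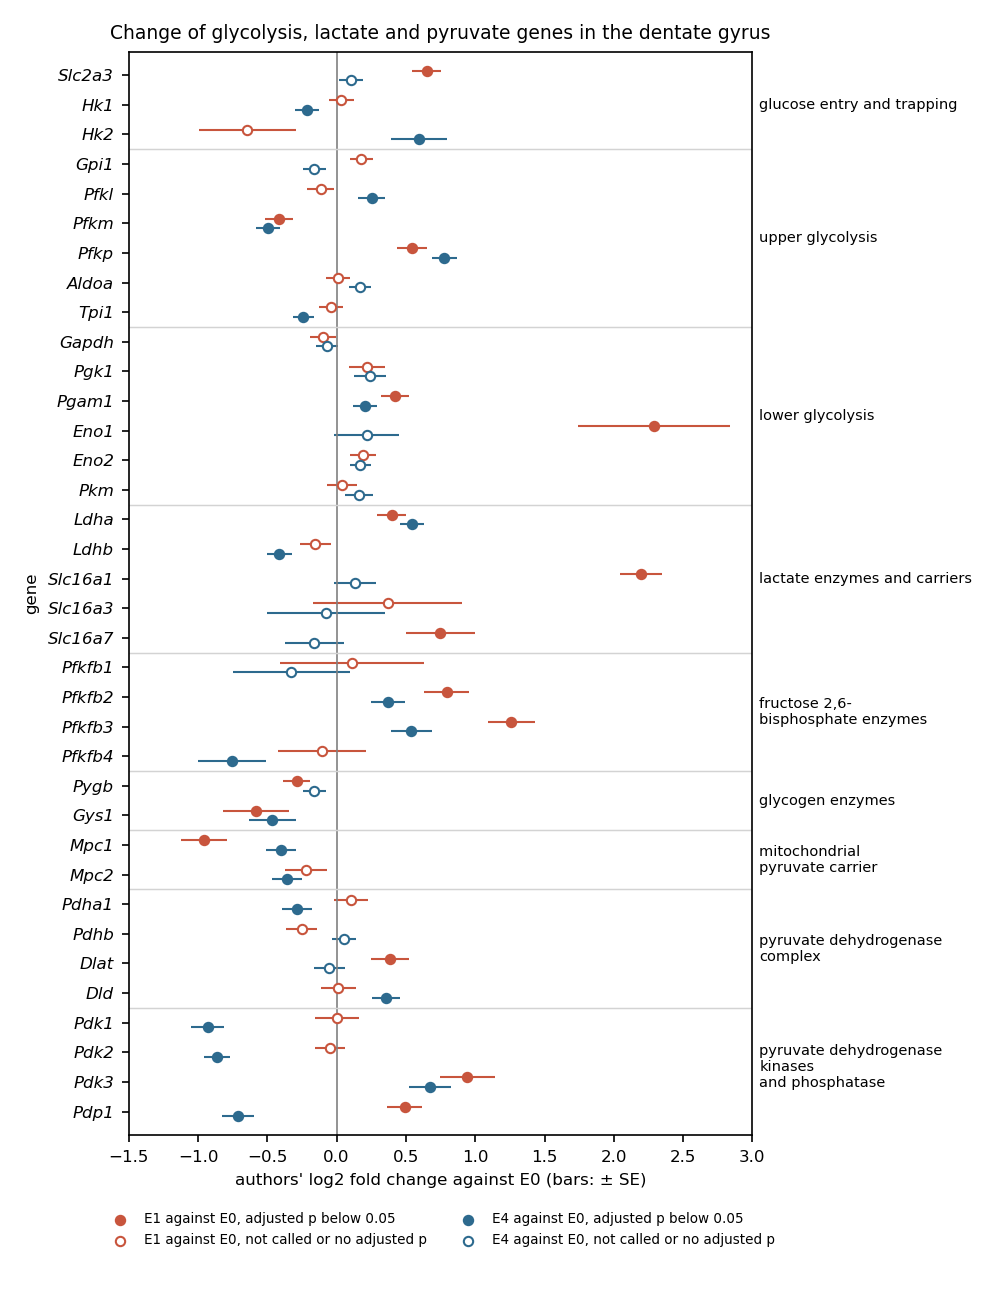
Log2 fold change against E0 of each gene, grouped by role, for E1 and E4, with bars of 1 SE by the authors. Filled points are genes past an adjusted p of 0.05. Slc16a1 reaches 2.20 in E1 and lies at 0.13 in E4, whereas Pdk1 and Pdk2 lie near 0 in E1 and at -0.93 and -0.86 in E4.

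By state, 6 genes rose in both comparisons (Pfkp, Pgam1, Ldha, Pfkfb2, Pfkfb3 and Pdk3) and 3 fell in both (Pfkm, Gys1 and Mpc1). Pdp1 rose in E1 and fell in E4. Another 4 rose in E1 without a call in E4 (Slc2a3, Slc16a1, Slc16a7 and Dlat), and Pygb fell in E1 without a call in E4. Without a call in E1, 8 fell in E4 (Hk1, Tpi1, Ldhb, Pfkfb4, Mpc2, Pdha1, Pdk1 and Pdk2) and 3 rose in E4 (Hk2, Pfkl and Dld). Eno1 rose in E1 and had no adjusted p in E4. No call was made in either comparison for Gpi1, Aldoa, Gapdh, Pgk1, Eno2, Pkm, Slc16a3 and Pdhb, nor for Pfkfb1 in E1, which had no adjusted p in E4.

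Promoters are shown for the 8 members that were called in E1 or E4 and held a match to a motif longer than 5 letters, of which 5 rose, 2 fell in both comparisons (Pfkm and Gys1) and Pdk2 fell in E4. The window with that match is printed. They were chosen after their values were seen. Each window runs from 250 bases before to 50 bases after a RefSeq gene start (GRCm38.p6), which is not the build the reads were aligned to. Windows were found for 33 of the 36 genes, 52 windows in all, since a gene can have several starts. The motifs searched on both strands were TGACGTCA (the cyclic AMP response element bound by CREB), its shorter form TGACG, the AP-1 motif TGANTCA, the sequence ACGTG (the core of hypoxia response elements), CACGTG (an E-box), and GCGTGGGCG and GCGGGGGCG (bound by Egr proteins). ACGTG lies inside CACGTG, and TGACG inside TGACGTCA, so these matches overlap. Capitals mark every match on either strand, 5′ to 3′ along the gene.
Slc16a1, chr3:104638414-104638713, plus strand: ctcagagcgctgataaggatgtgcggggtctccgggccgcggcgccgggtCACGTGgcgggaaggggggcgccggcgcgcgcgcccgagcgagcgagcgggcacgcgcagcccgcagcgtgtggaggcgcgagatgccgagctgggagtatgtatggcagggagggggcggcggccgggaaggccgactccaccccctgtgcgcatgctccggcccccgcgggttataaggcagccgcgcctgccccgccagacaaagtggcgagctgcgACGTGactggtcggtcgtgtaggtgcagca
Pfkfb3, chr2:11502041-11502340, minus strand: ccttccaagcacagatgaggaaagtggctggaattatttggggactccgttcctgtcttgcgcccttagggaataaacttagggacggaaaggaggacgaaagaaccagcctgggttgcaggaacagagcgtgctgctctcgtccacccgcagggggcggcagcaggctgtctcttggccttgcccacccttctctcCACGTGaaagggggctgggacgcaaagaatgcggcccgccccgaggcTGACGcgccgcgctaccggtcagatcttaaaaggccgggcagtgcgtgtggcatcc
Pfkfb2, chr1:130715772-130716071, minus strand: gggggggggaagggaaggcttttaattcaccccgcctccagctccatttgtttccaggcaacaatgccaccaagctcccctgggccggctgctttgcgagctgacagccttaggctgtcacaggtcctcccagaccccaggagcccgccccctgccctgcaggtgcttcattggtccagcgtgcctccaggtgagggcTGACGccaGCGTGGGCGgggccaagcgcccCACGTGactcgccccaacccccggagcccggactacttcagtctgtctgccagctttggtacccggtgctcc
Pfkp, chr13:6648722-6649021, minus strand: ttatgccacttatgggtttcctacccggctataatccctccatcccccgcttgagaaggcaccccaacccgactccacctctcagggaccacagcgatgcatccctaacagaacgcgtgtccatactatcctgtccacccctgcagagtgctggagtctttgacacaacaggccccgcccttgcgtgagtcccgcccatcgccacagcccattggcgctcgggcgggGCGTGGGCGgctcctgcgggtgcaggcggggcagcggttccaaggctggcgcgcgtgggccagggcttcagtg
Ldha, chr7:46845554-46845853, plus strand: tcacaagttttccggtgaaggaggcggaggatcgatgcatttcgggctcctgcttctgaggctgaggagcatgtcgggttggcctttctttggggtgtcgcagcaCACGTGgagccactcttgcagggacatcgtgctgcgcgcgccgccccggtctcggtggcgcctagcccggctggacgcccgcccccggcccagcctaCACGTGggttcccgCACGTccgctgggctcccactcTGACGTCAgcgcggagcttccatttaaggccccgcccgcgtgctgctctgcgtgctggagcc
Pdk2, chr11:95041322-95041621, minus strand: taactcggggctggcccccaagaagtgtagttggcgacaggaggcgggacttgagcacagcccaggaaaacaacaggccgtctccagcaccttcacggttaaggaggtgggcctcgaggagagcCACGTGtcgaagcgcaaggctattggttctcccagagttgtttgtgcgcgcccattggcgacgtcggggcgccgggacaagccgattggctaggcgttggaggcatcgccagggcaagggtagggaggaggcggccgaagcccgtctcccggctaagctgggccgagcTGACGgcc
Pfkm, chr15:98092339-98092638, plus strand: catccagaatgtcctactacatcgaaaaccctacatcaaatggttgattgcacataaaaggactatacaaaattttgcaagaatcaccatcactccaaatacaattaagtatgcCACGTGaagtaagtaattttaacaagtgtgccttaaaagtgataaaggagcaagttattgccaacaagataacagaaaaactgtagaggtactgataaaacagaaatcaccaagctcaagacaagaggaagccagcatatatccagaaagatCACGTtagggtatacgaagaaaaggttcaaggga
Gys1, chr7:45434589-45434888, plus strand: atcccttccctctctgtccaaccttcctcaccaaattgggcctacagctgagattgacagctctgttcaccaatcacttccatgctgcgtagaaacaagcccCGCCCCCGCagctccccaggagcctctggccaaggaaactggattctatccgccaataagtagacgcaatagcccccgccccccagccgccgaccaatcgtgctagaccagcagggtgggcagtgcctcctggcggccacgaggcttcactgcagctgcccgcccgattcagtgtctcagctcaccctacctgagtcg

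The Egr motif GCGTGGGCG was in the windows of Pfkfb2 and Pfkp, 2 of 52 member windows (3.85%) beside 0.612% of all 32851 windows. In Pfkfb2 it begins 44 bases before the start, with an E-box 22 bases before the start, and in Pfkp it begins 23 bases before the start. GCGGGGGCG was in 1 member window (1.92%), that of Gys1, beside 2.91% of all windows. The full TGACGTCA was in Ldha alone among the member windows (1.92%), 12 bases before the start, beside 1.79% of all windows. TGACG was in 15 windows (28.8%, all windows 20.8%) and ACGTG in 21 (40.4%, all windows 19.6%). CACGTG was in 6 windows (11.5%, all windows 7.15%), those of Ldha, Pdk2, Pfkfb2, Pfkfb3, Pfkm and Slc16a1. TGANTCA was in 1 window, that of Aldoa (1.92%, all windows 7.81%). The windows were not matched for base composition. A match is a description of letters, not a site or a cause. Of the 6 genes with CACGTG, Ldha, Pfkfb2, Pfkfb3 and Slc16a1 rose in E1, Pfkm fell in both comparisons and Pdk2 fell in E4. A link between these letters and the changes was not tested.

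Both steps of glucose entry and trapping held calls. Slc2a3, the high-affinity neuronal glucose carrier GLUT3, had a level of 1942 in E0, 3049 in E1 and 2091 in E4. It rose by 0.65 ± 0.11 on the log2 scale in E1 (1.57-fold, adjusted p = 8.61e-09), while the E4 value was 0.11 ± 0.09 (adjusted p = 0.353) in the authors' deposited tables. The drop from E1 to E4, computed from both tables, was -0.54 ± 0.14 (adjusted p = 0.000388). Hk1, the main brain hexokinase, made up 98.3% of the summed per-kilobase level of Hk1 and Hk2 in E0. It fell in E4 by 0.22 ± 0.09 (adjusted p = 0.0369), and in E1 its value was 0.04 ± 0.09 (adjusted p = 0.800) in the authors' deposited tables. Hk2, the inducible hexokinase, was low, at 83.4 in E0, 52.9 in E1 and 125.8 in E4. Its value was -0.64 ± 0.35 in E1 (adjusted p = 0.143), and it rose by 0.59 ± 0.20 in E4 (adjusted p = 0.0114) in the authors' deposited tables. From E1 to E4 it rose by 1.24 ± 0.40 (adjusted p = 0.00815).

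Among the enzymes of upper glycolysis, the phosphofructokinase isoforms moved in different directions. Phosphofructokinase catalyses the committed step of the pathway and is built from muscle (Pfkm), liver (Pfkl) and platelet (Pfkp) subunits. Pfkm had a level of 4227 in E0, 3165 in E1 and 2998 in E4. It fell by 0.42 ± 0.10 in E1 (adjusted p = 0.000197) and by 0.50 ± 0.09 in E4 (adjusted p = 1.45e-07) in the authors' deposited tables. Pfkp went the other way, from 1212 in E0 to 1764 in E1 and 2077 in E4. In the authors' deposited tables Pfkp rose by 0.54 ± 0.11 in E1 (adjusted p = 4.52e-06) and by 0.78 ± 0.09 in E4 (1.71-fold, adjusted p = 6.8e-17). Pfkl rose in E4 by 0.25 ± 0.10 in the authors' deposited table (adjusted p = 0.0267) after -0.11 ± 0.10 in E1 (adjusted p = 0.392). Per kilobase of transcript, Pfkm made up 58.9% of the 3 isoforms in E0, 49.9% in E1 and 43.1% in E4, and Pfkp made up 11.7%, 19.3% and 20.7%. The summed per-kilobase level of the 3 was 0.882 times that of E0 in E1 and 0.969 times in E4. The shares are a description with no test.

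Of the other enzymes of this stretch, Tpi1 alone was called. Gpi1, which turns glucose phosphate into fructose phosphate, had a level of 5644 in E0, 6395 in E1 and 5052 in E4 and was called in neither comparison. Its difference between E4 and E1 was -0.34 ± 0.12 (adjusted p = 0.0127). Aldoa, the aldolase that cleaves the hexose bisphosphate, had levels of 18039, 18170 and 20267, with log2 fold changes of 0.01 ± 0.08 and 0.17 ± 0.08 in the authors' deposited tables (adjusted p = 0.943 and 0.0737). Tpi1, which interconverts the triose phosphates, fell in E4 by 0.24 ± 0.08 in the authors' deposited table (adjusted p = 0.00682), and its E1 value was -0.04 ± 0.09.

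In lower glycolysis Pgam1 rose in both comparisons. Pgam1, the phosphoglycerate mutase of brain, had a level of 3860 in E0, 5169 in E1 and 4445 in E4. It rose by 0.42 ± 0.10 in E1 (adjusted p = 0.000159) and by 0.20 ± 0.09 in E4 (adjusted p = 0.0468, and 0.0814 with fold changes centred on the median well-read gene) in the authors' deposited tables. Gapdh, which makes the first NADH of the pathway and is often used as a reference gene, had levels of 19162, 17919 and 18281. Its log2 fold changes were -0.10 ± 0.09 in E1 (95% interval -0.28 to 0.09) and -0.07 ± 0.08 in E4 (-0.22 to 0.09) in the authors' deposited tables. Pgk1 (0.22 ± 0.13 and 0.24 ± 0.11), the neuronal enolase Eno2 (0.19 ± 0.09 and 0.17 ± 0.08) and pyruvate kinase Pkm (0.04 ± 0.11 and 0.16 ± 0.10) were above 0 in the authors' deposited tables in E1 and E4, in that order, with no call. Removing the trend on transcript length and GC content brought calls in both comparisons for Aldoa, Pgk1 and Eno2. Many genes of this stretch have near-identical copies elsewhere in the genome, and the authors' handling of shared reads is not stated in these sources.

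Enolase 1 is such a case. Eno1 itself was hardly read, with means of 4.34 (E1) and 0.435 (E4) normalised counts in the authors' deposited tables, although it is the ubiquitous enolase. Eno1b, a gene copy named here after its values were seen, had mean counts of 947 and 819. The longest transcripts of both matched at 1643 bases with 9 mismatches, 99.5% identity. Eno1 rose by 2.29 ± 0.55 (adjusted p = 0.000191) and Eno1b by 1.72 ± 0.11 (3.29-fold, adjusted p = 4.52e-51) in the authors' deposited table for E1. Eno1b stood at 827 in E0, 2744 in E1 and 812 in E4, and its E4 value in the authors' deposited table was -0.03 ± 0.11. Which copy the reads came from cannot be told apart in these tables.

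**Figure D2:**
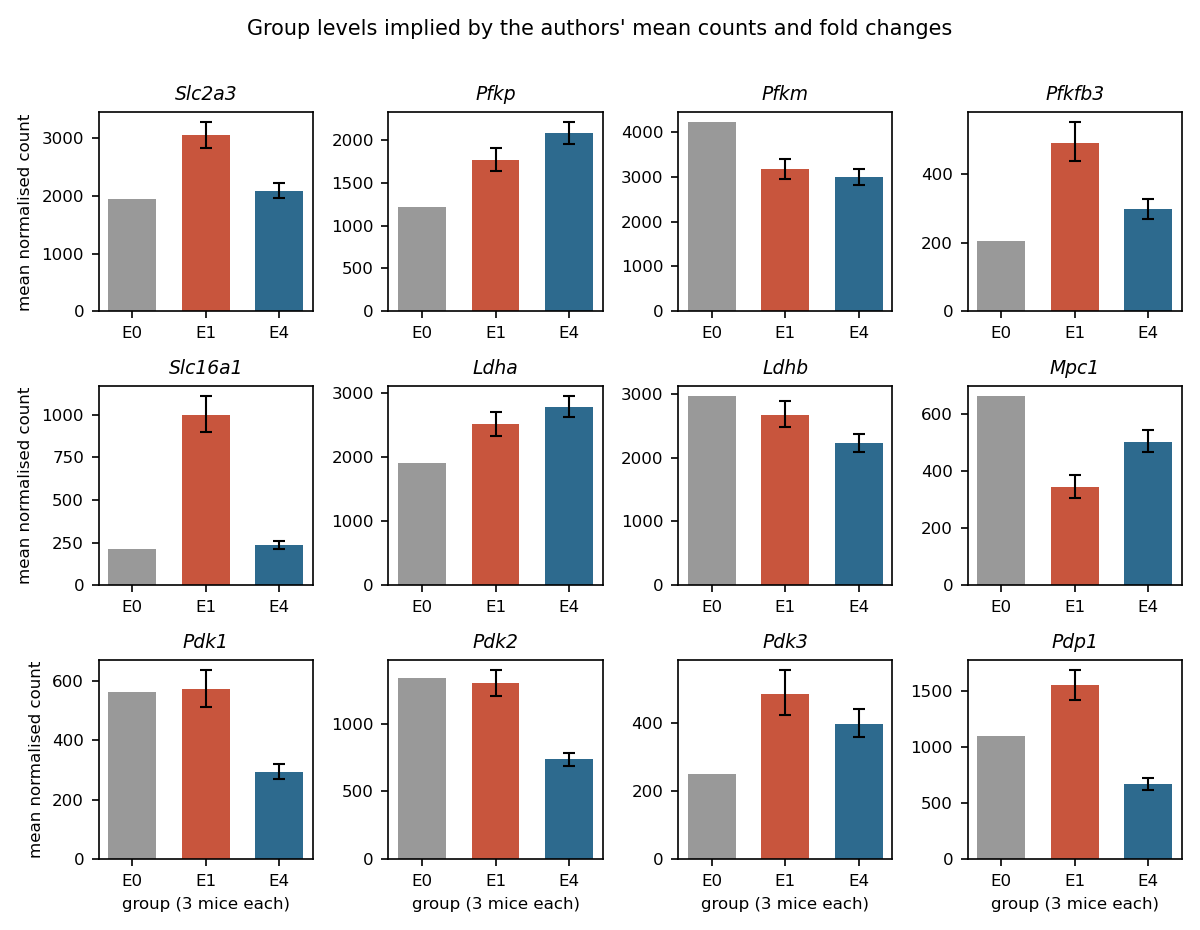
Group levels of 12 genes in E0, E1 and E4, in mean normalised counts computed from the authors' deposited tables. Bars on E1 and E4 span 1 SE of the log2 fold change against E0, and E0 carries none. Slc16a1 stands at 212.5, 1001 and 233, and Mpc1 at 662, 342.2 and 501.2.

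Among well-read members the largest log2 fold change was that of a lactate carrier. Slc16a1 encodes MCT1, a lactate carrier found on endothelial cells and glia. Its level was 212.5 in E0, 1001 in E1 and 233 in E4. It rose by 2.20 ± 0.15 (4.58-fold, adjusted p = 2.15e-45), the 125th smallest p of 15660 genes in the authors' deposited table for E1. For E4 the authors' deposited table gave 0.13 ± 0.15 (adjusted p = 0.538), and the difference between E4 and E1 was -2.06 ± 0.22 (adjusted p = 7.43e-20). Endothelial markers summed to 1.52 times their E0 level in E1, with single markers from 0.535 times (Ly6c1) to 2.82 times (Flt1). Of these 10 markers 3 rose and 1 fell, where 20.6% of all genes tested rose and 15.0% fell. Oligodendrocyte markers summed to 1.05 times their E0 level. The part of both marker lists in the rise of Slc16a1 was not tested. Slc16a7, the neuronal lactate carrier MCT2, stood at 101.8, 173.6 and 91.1. It rose in E1 by 0.75 ± 0.25 in the authors' deposited table (adjusted p = 0.0102) and was at -0.16 ± 0.21 in E4 (adjusted p = 0.598). Removing the length and GC trend ended this E1 call (0.14, adjusted p = 0.711). The MCT1 and MCT2 calls are of tissue RNA and name no cell type. Slc16a3, the carrier MCT4 of astrocytes, was barely read (mean counts of 6.28 and 8.45) and not called.

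Ldha and Ldhb, which encode the lactate dehydrogenase subunits, moved in opposite directions in E4. Ldha, the subunit that favours lactate formation, had a level of 1912 in E0, 2514 in E1 and 2787 in E4. In the authors' deposited tables it rose by 0.40 ± 0.10 in E1 (1.32-fold, adjusted p = 0.000782) and by 0.54 ± 0.09 in E4 (1.46-fold, adjusted p = 3.11e-09). Ldhb, the heart-type subunit, was at 2974, 2678 and 2231. It fell in E4 by 0.42 ± 0.09 (adjusted p = 2.85e-05) after -0.15 ± 0.11 in E1 (adjusted p = 0.293) in the authors' deposited tables. Per kilobase, Ldha made up 31.6% of both subunits in E0, 40.3% in E1 and 47.3% in E4, while their sum was 1.03 and 0.973 times that of E0. These are RNA levels, and the make-up of the enzyme was not measured.

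**Figure D3:**
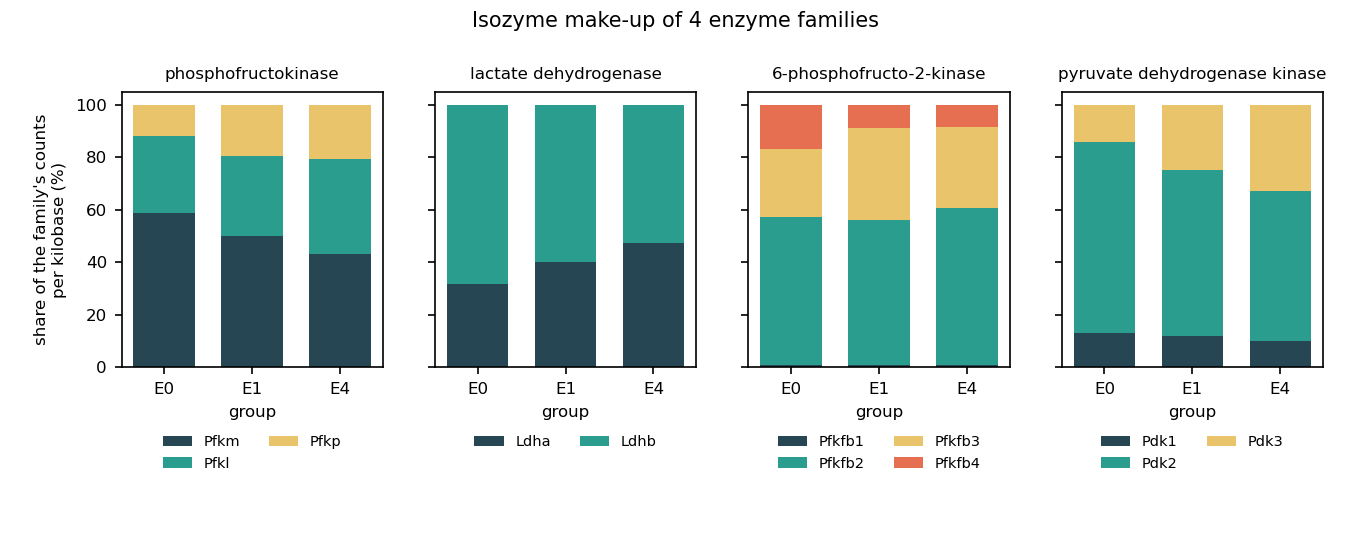
Share of each isoform in the summed per-kilobase level of its family in E0, E1 and E4. The Ldha share goes from 31.6% to 47.3% and the Pfkm share from 58.9% to 43.1% between E0 and E4.

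The PFKFB enzymes make and break fructose 2,6-bisphosphate, a strong activator of phosphofructokinase, and Pfkfb3 leans most to its synthesis. Pfkfb3 had a level of 204.7 in E0, 492.8 in E1 and 297.6 in E4. It rose by 1.26 ± 0.17 in E1 (2.40-fold, adjusted p = 6.92e-13) and by 0.54 ± 0.15 in E4 (adjusted p = 0.000972) in the authors' deposited tables. The difference between E4 and E1 was -0.72 ± 0.22 (adjusted p = 0.00465). Pfkfb2, at 407.6, 714.2 and 526.6, rose by 0.80 ± 0.16 in E1 (adjusted p = 7.48e-06) and by 0.37 ± 0.12 in E4 (adjusted p = 0.00989) in the authors' deposited tables. Pfkfb4 was low (96.5, 90.7 and 57.3) and fell in E4 by 0.75 ± 0.25 in the authors' deposited table (adjusted p = 0.00762). Pfkfb1, with mean counts of 2.06 and 2.81, was too low to compare. The summed per-kilobase level of the family was 1.78 times that of E0 in E1 and 1.21 times in E4.

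Both glycogen enzymes fell in at least 1 comparison. Pygb, the brain glycogen phosphorylase that releases glucose units from glycogen, had a level of 3870 in E0, 3167 in E1 and 3464 in E4. It fell in E1 by 0.29 ± 0.10 in the authors' deposited table (adjusted p = 0.0127) and was at -0.16 ± 0.08 in E4 (adjusted p = 0.120). Gys1, the glycogen synthase, stood at 177.5, 117.9 and 128.7. It fell by 0.58 ± 0.24 in E1 (adjusted p = 0.0409) and by 0.46 ± 0.17 in E4 (adjusted p = 0.0196) in the authors' deposited tables. Both E1 calls were lost with the length and GC trend removed (adjusted p = 0.0533 for Pygb and 0.0792 for Gys1). Astrocytes hold most brain glycogen. In E1, 6 of 10 astrocyte markers fell, beside 15.0% of all genes tested, and the median log2 fold change of the 10 was -0.42. Their summed level was 0.935 times that of E0, with Slc1a2 holding 34922 of 58801 in E0. In E4, 1 of the 10 astrocyte markers rose and 1 fell, with a median of -0.08 and a summed level 0.981 times that of E0. The part of the astrocyte markers in the fall of both genes was not tested.

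Both subunits of the mitochondrial pyruvate carrier fell in E4, and Mpc1 fell in E1 too. Mpc1 and Mpc2 form a heterodimer in the inner membrane. Mpc1 had a level of 662 in E0, 342.2 in E1 and 501.2 in E4. It fell by 0.96 ± 0.17 in E1 (adjusted p = 9.69e-08) and by 0.40 ± 0.11 in E4 (adjusted p = 0.00120) in the authors' deposited tables. The E4 value was above that of E1 by 0.56 ± 0.20 (adjusted p = 0.0179). With the length and GC trend removed, the E1 value of Mpc1 was -0.60 (adjusted p = 0.00186) and the difference between E4 and E1 was 0.27 (adjusted p = 0.304), no longer called. Mpc2 (569.5, 488 and 444) fell in E4 by 0.36 ± 0.11 in the authors' deposited table (adjusted p = 0.00417), with -0.22 ± 0.15 in E1 (adjusted p = 0.265).

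The 4 subunits of the pyruvate dehydrogenase complex did not move as a block. Pdha1, the catalytic subunit that the kinases phosphorylate, fell in E4 by 0.29 ± 0.11 in the authors' deposited table (adjusted p = 0.0244), with 0.10 ± 0.12 in E1. Pdhb, its partner, was called in neither comparison (-0.25 ± 0.11 and 0.05 ± 0.09 in the authors' deposited tables). Dlat, the acetyltransferase core, rose in E1 by 0.38 ± 0.14 in the authors' deposited table (adjusted p = 0.0164, and 0.0736 with the length and GC trend removed) and was at -0.05 ± 0.11 in E4. Dld, the dehydrogenase that other mitochondrial complexes share, rose in E4 by 0.36 ± 0.10 in the authors' deposited table (adjusted p = 0.00185), with 0.01 ± 0.12 in E1. The summed level of the 4 was 1.05 times that of E0 in E1 and 1.02 times in E4.

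The 3 kinases and the phosphatase among the members all changed in E4. Pdk4, Pdp2 and Pdpr, further regulators of the complex, are no members and are left out of the shares and sums here. Pdk4 and Pdp2 fell in E4 to 0.624 and 0.612 times E0 in the authors' deposited table, and Pdpr was not called. Pdk2, the highest per kilobase of these 3 kinases, had a level of 1339 in E0, 1299 in E1 and 736.5 in E4. In the authors' deposited tables it was at -0.05 ± 0.11 in E1 (adjusted p = 0.764) and fell by 0.86 ± 0.09 in E4 (adjusted p = 3.45e-19). Pdk1 stood at 561.6, 571.4 and 294.5. Pdk1 was at 0.01 ± 0.16 in E1 (adjusted p = 0.985) and fell by 0.93 ± 0.12 in E4 (adjusted p = 2.09e-13) in the authors' deposited tables. The differences between E4 and E1 were -0.81 ± 0.14 for Pdk2 (adjusted p = 1.2e-07) and -0.94 ± 0.20 for Pdk1 (adjusted p = 1.94e-05). Pdk3, by contrast, rose and stood at 248.4, 484.5 and 396.9. It rose by 0.94 ± 0.20 in E1 (1.92-fold, adjusted p = 1.36e-05) and by 0.68 ± 0.15 in E4 (1.60-fold, adjusted p = 5.75e-05) in the authors' deposited tables. Per kilobase, Pdk3 made up 14.3% of the 3 kinases in E0, 24.97% in E1 and 32.8% in E4, while Pdk2 made up 72.5%, 63.0% and 57.3%. The summed per-kilobase level of the 3 kinases was 1.12 times that of E0 in E1 and 0.696 times in E4.

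Pdp1, the phosphatase that removes the inhibitory phosphates, was the single member called in opposite directions. Its level was 1098 in E0, 1549 in E1 and 669.8 in E4. It rose by 0.49 ± 0.12 in E1 (adjusted p = 0.000437) and fell by 0.71 ± 0.11 in E4 (adjusted p = 3.72e-09) in the authors' deposited tables. The difference between E4 and E1 was -1.20 ± 0.17 (adjusted p = 1.98e-11). With the length and GC trend removed the E1 value was 0.08 (adjusted p = 0.692), while the fall in E4 was called under every alternative run.

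Between E4 and E1, 13 of 33 members with enough reads differed, 3 higher and 10 lower in E4, which is 39.4% beside 36.7% of 12769 genes. The share lower in E4 was 10 of 33 beside 19.0% of all genes, and the median difference was -0.20 beside 0.01. The 10 lower in E4 were Slc2a3, Gpi1, Slc16a1, Slc16a7, Pfkfb3, Pdha1, Dlat, Pdk1, Pdk2 and Pdp1, and the 3 higher were Hk2, Pfkl and Mpc1. This test used the deposited fold changes and SEs and took the errors as independent although E0 is shared.

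**Figure D4:**
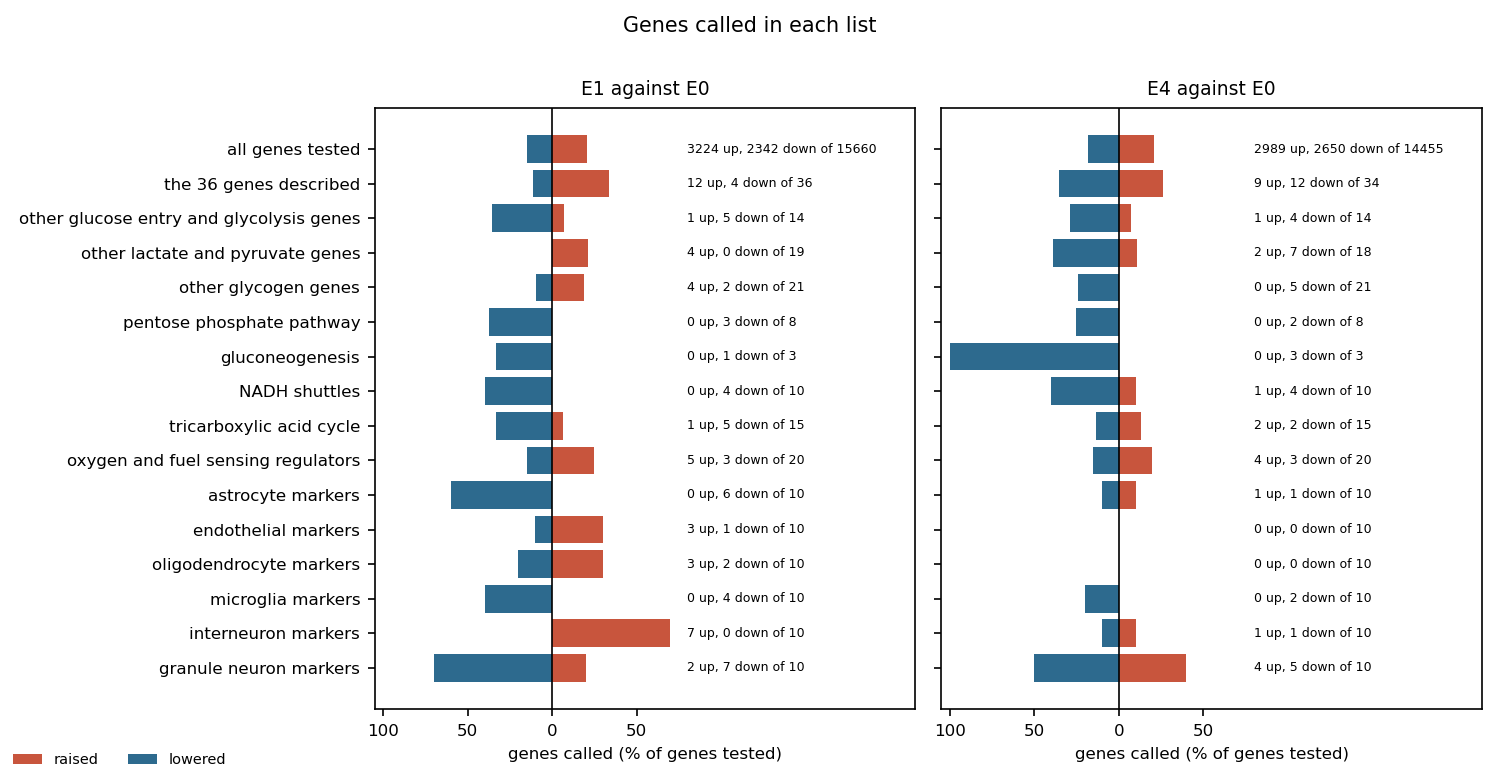
Share of tested genes that rose (right) or fell (left) at an adjusted p below 0.05 in E1 and E4, for all genes, the 36 genes, the other pathway lists and the cell type markers, with the counts printed beside each bar. The 36 genes show 12 up and 4 down in E1 and 9 up and 12 down in E4.

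Other genes of the same routes are given from lists of pathway genes, without removal of the length and GC trend. Over all genes tested, 35.5% were called in E1 and 39.0% in E4. Of 14 other glucose entry and glycolysis genes tested, 1 rose and 5 fell in E1 (42.9%), and 1 rose and 4 fell in E4 (35.7%). Slc2a1, the glucose carrier GLUT1 of endothelium and glia, rose by 1.40 ± 0.14 in E1 in the authors' deposited table (2.64-fold, adjusted p = 5.3e-21) and was at 0.01 ± 0.15 in E4. Aldoc, the astrocyte aldolase, fell in E1 by 0.67 ± 0.11 in the authors' deposited table (adjusted p = 3.51e-08). Of 19 other lactate and pyruvate genes tested in E1, 4 rose and none fell (21.1%, below the 35.5% of all genes). Of 18 tested in E4, 2 rose and 7 fell, so 9 of 18 were called beside 39.0% of all genes. Slc16a10, an aromatic amino acid carrier of the same family, rose by 2.15 ± 0.23 in E1 and 1.53 ± 0.18 in E4 in the authors' deposited tables (adjusted p = 4.28e-20 and 8.35e-16). Of 21 other glycogen genes tested, 4 rose and 2 fell in E1 (28.6%), and none rose and 5 fell in E4 (23.8%). Pgm2l1, which makes glucose bisphosphate in brain, rose by 0.46 ± 0.12 in E1 and fell by 0.84 ± 0.10 in E4 in the authors' deposited tables (adjusted p = 0.000442 and 6.66e-16).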

How the data were processed

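RNA-seq of total RNA from the dentate gyrus of 9 individual mice, 3 per group, was analysed from 2 tables of the authors' own comparisons. Reads were aligned with TopHat2 to mm9 and compared with DESeq2, per the submitters' processing notes, without versions. How reads were counted, on which annotation and strand, is not given in the sources used here. Per the file headers the deposited signal is a mean of size-factor-scaled counts, on a scale of its own in each table. The deposited log2 fold changes and SEs are the authors' and appear shrunken toward 0. The deposited score is the fold change over its SE, and the deposited p-value equals its two-sided normal p within 5e-08. Recomputed Benjamini-Hochberg values matched the authors' adjusted p-values within 3.6e-07, and a missing adjusted p was kept missing.

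Group levels were computed with Python 3.11.15, pandas 2.3.3 and scipy 1.17.1 from mean count and fold change, with the scale of E4 set at 1.891 times that of E1 from 9818 genes whose mean count was 50 or more in each. The E0 levels of both tables then differed by an SD of 0.03 (log2). Levels between genes were compared per kilobase of the longest GENCODE M21 transcript. The difference between E4 and E1 is that of the fold changes over the root of the summed squared SEs, with a two-sided normal p and Benjamini-Hochberg adjustment over 12769 genes whose mean count reached 10 in each table. Dates had replaced 27 symbols in 1 file, and 23988 symbols are shared. Samples were grouped by their titles. P-values measure the spread between individual mice as the authors modelled it.

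The members and lists were chosen with earlier results of these data known. Named are all members, up to 4 called genes of each other pathway list with the smallest adjusted p and a mean count of at least 50, and Fos, Arc and Prox1 as checks. Alternatives, run for the members only, were other thresholds, filters, centring, removal of a length and GC trend, and a correlated error for E0.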

Additional observations from a re-analysis of the deposited data

Results flagged for a closer look

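For 13 members the change in E4 differed from that in E1 by the test of the difference. Lower in E4 than in E1 were Slc16a1 by a log2 difference of -2.06, Pdp1 by -1.20, Pdk1 by -0.94, Slc16a7 by -0.91, Pdk2 by -0.81, Pfkfb3 by -0.72, Slc2a3 by -0.54, Dlat by -0.44, Pdha1 by -0.39 and Gpi1 by -0.34. Higher in E4 were Hk2 by 1.24, Mpc1 by 0.56 and Pfkl by 0.37. For Gpi1 neither change against E0 was called. With an adjusted p below 0.01 in place of 0.05, 7 of the 13 were called, and Gpi1, Pfkl, Slc16a7, Mpc1, Pdha1 and Dlat were not. Removing the length and GC trend ended the calls of Pfkl (0.30, adjusted p = 0.0790), Slc16a7 (-0.44, adjusted p = 0.297), Mpc1 (0.27, adjusted p = 0.304), Pdha1 (-0.31, adjusted p = 0.126) and Dlat (-0.36, adjusted p = 0.09997).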

How the results depend on the processing

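No paired analysis was possible because the deposited tables of comparisons hold no value per library, and for the same reason no library could be left out. In E1, 16 members were called, and 10 with an absolute log2 fold change of at least 0.5. The 4 that fell became 2 with that minimum, 2 at an adjusted p below 0.01 and 2 with the length and GC trend removed. In E4, 21 calls became 9 with the minimum of 0.5, the 9 that rose became 5 and the 12 that fell became 4. Between E4 and E1, 13 calls became 22 (6 higher and 16 lower) with an error correlation of 0.5 for the shared E0 libraries, and 7 (1 higher and 6 lower) at an adjusted p below 0.01. With the length and GC trend removed, 7 members changed sign in E1, none of them called before or after: Tpi1 0.18, Gapdh 0.15, Ldhb 0.13, Mpc2 0.15, Dld -0.21, Pdk1 -0.13 and Pdk2 0.082. The E1 calls of Slc16a7 (0.14), Pygb (-0.23), Gys1 (-0.52), Dlat (0.30) and Pdp1 (0.08) were lost, and Gpi1 (0.26), Aldoa (0.23), Pgk1 (0.36) and Eno2 (0.29) were gained. In E4 the same removal lost no call. Between E4 and E1 it ended the calls of Pfkl, Slc16a7, Mpc1, Pdha1 and Dlat and brought calls for Hk1 (-0.32), Tpi1 (-0.36), Pgam1 (-0.35), Ldhb (-0.47) and Dld (0.55). Of uncalled differences, Aldoa (-0.0097), Gapdh (-0.16) and Pgk1 (-0.073) changed sign with it, and Gapdh (-0.0083) and Pgk1 (-0.016) with centring. The causes of these changes were not tested. E1 had the lower depth and the wider errors, with a median SE of 0.169 for well-read genes beside 0.129 in E4.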

Other observations

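In neighbouring routes the shares of genes called in E1 lay near that of all genes (35.5%), at 40.0% for NADH shuttles, the citric acid cycle and regulators of oxygen and fuel sensing and 37.5% for the pentose phosphate pathway. In E4, where 39.0% of all genes were called, the citric acid cycle was at 26.7% and the regulators at 35.0%, while 2 of 8 pentose phosphate and 5 of 10 NADH shuttle genes were called. The glycerol phosphate shuttle, which carries electrons of glycolytic NADH into mitochondria, held a reversal: Gpd1 fell by 0.63 ± 0.14 in E1 (adjusted p = 8.65e-05) and rose by 1.07 ± 0.10 in E4 (2.10-fold, adjusted p = 1.77e-23) in the authors' deposited tables. Its relative Gpd1l fell by 0.36 ± 0.14 in E1 and by 1.12 ± 0.12 in E4 in the authors' deposited tables (adjusted p = 0.03555 and 1.18e-20). Of 10 NADH shuttle genes tested, 4 fell and none rose in E1, and 4 fell and 1 rose in E4. In the citric acid cycle, 1 of 15 genes rose and 5 fell in E1, and 2 rose and 2 fell in E4. Cs, the citrate synthase, rose in E4 by 0.65 ± 0.08 in the authors' deposited table (1.57-fold, adjusted p = 4.59e-14). In the pentose phosphate pathway none of 8 genes rose in either comparison, 3 fell in E1 and 2 fell in E4. Taldo1 fell by 0.81 ± 0.19 in E1 and Tkt by 0.48 ± 0.10 in E4 in the authors' deposited tables (adjusted p = 9.32e-05 and 8.50e-06). Taldo1 also fell in E4, by 0.27 ± 0.11 in the authors' deposited table (adjusted p = 0.0482). All 3 gluconeogenesis genes tested fell in E4, with Pck2 at -1.12 ± 0.19 in the authors' deposited table (adjusted p = 2.22e-08).

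Of 20 regulators of oxygen and fuel sensing, 5 rose and 3 fell in E1, and 4 rose and 3 fell in E4. Mlxip, a glucose-sensing transcription factor, rose in E1 by 1.15 ± 0.16 in the authors' deposited table (2.22-fold, adjusted p = 4.39e-11). Vhl, which marks hypoxia-inducible factors for destruction, fell by 0.78 ± 0.14 in E1 and rose by 0.41 ± 0.10 in E4 in the authors' deposited tables (adjusted p = 3.13e-07 and 0.000233). Bnip3 fell by 0.46 ± 0.15 in E1 and by 1.15 ± 0.11 in E4 in the authors' deposited tables (adjusted p = 0.0103 and 5.39e-22).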
